A study of Rattus norvegicus with 4 samples.

Results

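Genes of the extracellular matrix and of the proteases that cut it were followed in rat testis as vitamin A was restored. They were taken by gene symbol: collagen chains (Col, number, a, number), laminin chains (Lama, Lamb, Lamc), every Mmp, Timp, Adamts and Serpine symbol, and Fn1, Sparc, Bgn, Dcn, Lum, Postn, Spock2, Plat, Plau, Has2 and Vcan. The array named 48 of them among 4736 genes, through 69 of 8799 probe sets, and no Adamts gene was among those named. Rats were put on a diet without vitamin A at 20 days of age and kept on it for 9 weeks, so every group shares the deficiency. The groups were VAD, the vitamin A-deficient testis with no retinol (0 h), and deficient testis 4, 8 and 24 h after retinol, the alcohol form of the vitamin. Each group was 1 deposited sample of total testis, here called an array. No group was fed a vitamin A-sufficient diet in the samples analysed here. The sources used here do not give the strain, the retinol dose and route, or how many animals stand behind an array.

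The seminiferous tubule is wrapped in a basement membrane of type IV collagen and laminin, laid down by Sertoli cells inside and peritubular myoid cells outside. Fibrillar collagens, fibronectin and proteoglycans fill the wall and the interstitium. Matrix metalloproteinases (MMPs) cut these proteins, the tissue inhibitors of metalloproteinases (TIMPs) block them, and the plasminogen activators with their serpin inhibitors run a second proteolytic system. These proteases are known for opening the junctions and the tubule wall as germ cells move. Retinoic acid, made from retinol, acts through nuclear receptors that bind DNA and that can also interfere with the transcription factor AP-1, a known activator of several MMP genes.

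The deposited values were linear ratios per probe set to a reference that is not stated, with medians of 0.995 on the VAD array and 0.934, 0.923 and 0.922 at 4, 8 and 24 h. The VAD ratios of the matrix genes ran from 0.632 to 1.305, and 30 of the 48 lay within 10% of 1. A gene's value was the mean log2 ratio over its probe sets, and a change was the log2 difference between 2 arrays, against VAD unless another array is named. With 1 array a group there is no replicate check, no p-value and no sample spread. The error available was the disagreement between probe sets of the same gene: over 1083 genes the noise of 1 probe set was 0.42, 0.51 and 0.57 (log2, SD) at 4, 8 and 24 h. Across all genes the median change was -0.09, -0.12 and -0.12. Scaling on the 9 bacterial spike-in probe sets would add 0.55, 0.50 and 0.62 to every change, so signs of smaller negative changes hold only for the values as deposited. The control transcripts read at both ends changed more at the 5' than the 3' end, by 0.71, 1.09 and 1.01 on average. How far the matrix genes share that difference was not tested. In whole testis fewer cells of a type and less RNA per cell cannot be told apart, and ratios carry no level, so the tissue could not be checked for the presence of its defining markers.

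Promoter sequences (the 250 bases before the gene's start, RefSeq, assembly GRCr8) were found for 34 of the 48 genes. The MMP genes are shown because 6 of the 12 measured lie within one stretch of chromosome 8, in the order Mmp13, Mmp12, Mmp3, Mmp10, Mmp8 and Mmp7. In 5 of these the motif TGANTCA, the AP-1 site, stood 61 to 87 bases before the start, followed by TATAAA, the TATA box. The last 110 bases before each start are printed, with matches to either motif on either strand in capitals. Mmp8 held no match to TGANTCA in its 250 bases.
Mmp13, chr8:12782719-12782828, + strand: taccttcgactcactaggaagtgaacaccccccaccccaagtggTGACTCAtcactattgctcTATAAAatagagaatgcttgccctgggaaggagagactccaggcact
Mmp12, chr8:12866542-12866651, + strand: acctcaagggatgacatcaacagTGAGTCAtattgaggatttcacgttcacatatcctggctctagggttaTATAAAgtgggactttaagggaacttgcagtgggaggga
Mmp3, chr8:12925171-12925280, + strand: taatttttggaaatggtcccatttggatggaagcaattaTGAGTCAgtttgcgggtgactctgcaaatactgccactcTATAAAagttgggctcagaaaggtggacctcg
Mmp10, chr8:12974597-12974706, + strand: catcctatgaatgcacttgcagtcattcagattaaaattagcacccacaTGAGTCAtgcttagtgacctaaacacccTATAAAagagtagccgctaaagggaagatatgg
Mmp8, chr8:13008780-13008889, + strand: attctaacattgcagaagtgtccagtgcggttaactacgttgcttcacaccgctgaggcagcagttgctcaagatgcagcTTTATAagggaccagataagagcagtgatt
Mmp7, chr8:13132933-13133042, + strand: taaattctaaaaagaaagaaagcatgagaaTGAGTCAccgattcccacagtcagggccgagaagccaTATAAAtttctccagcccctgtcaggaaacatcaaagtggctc

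Of the 34 promoters 6 (17.6%) held TGANTCA, these 5 and that of Lama3, against 6.99% of 27457 genes with a promoter in the RefSeq table and 5.66% of the 3871 on the array. A TATAAA match was found in 9 of 34 (26.5%), against 14.1% of all genes in the table and 11.4% on the array. Among these 9 are all 6 MMP genes of the chromosome 8 stretch, which also gives 5 of the 6 promoters with TGANTCA. As neighbouring genes of 1 family they are not separate cases, so both shares count 1 gene group several times. GGGCGG, the GC box bound by Sp1, was found in 16 of 34 (47.1%), between the 33.5% of all genes in the table and the 54.0% of those on the array. AGGTCA, the core motif of nuclear receptor sites, was found in 1 (Mmp10; 2.94%), against 14.8% in the table and 12.6% on the array. Direct repeats of it spaced by 2 or 5 bases were found in 0 of the 34 and in 0 of the 3871, so these windows tell nothing of them. Each motif was searched on both strands. These matches are letters in a short window and show no binding.

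Over the 48 genes the median change was -0.05, -0.14 and 0.02 for the 4, 8 and 24 h arrays. Those above VAD numbered 21, 18 and 24 (43.8%, 37.5% and 50%), where all genes gave 38.8%, 38.5% and 40.0%. Past a 2-fold change there was 1 gene at 4 h, 1 at 8 h and 2 at 24 h, all of them lower. That is 2.08%, 2.08% and 4.17% of the list, against 2.66%, 4.71% and 5.91% of all genes past 2-fold either way, for the values as deposited. For lower genes alone the background was 1.25%, 1.88% and 2.64%, below the list's share, which rests on 1 or 2 genes. The order against the background turned under other processing. Centring on the median of all genes gave 6.25% of the list against 2.83% at 4 h. Spike-in scaling gave 14.6%, 14.6% and 18.8% against 9.65%, 10.6% and 16.0%. Leaving out probe sets of shared or mixed suffix gave 7.5% of 40 genes against 6.69% at 24 h. Keeping only each gene's highest probe set gave 8.33% against 7.05% at 8 h and 10.4% against 8.49% at 24 h. That rule picks by the mean ratio over the 4 arrays, so it favours probe sets that rose after retinol and is no independent check. The genes called as deposited were Spock2 on each array and Has2 at 24 h. In all, 17 genes (35.4%) were at least 1.5-fold from VAD on some retinol array, against 32.5% of all genes, and the other 31 stayed within 1.5-fold throughout.

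**Figure D1:**
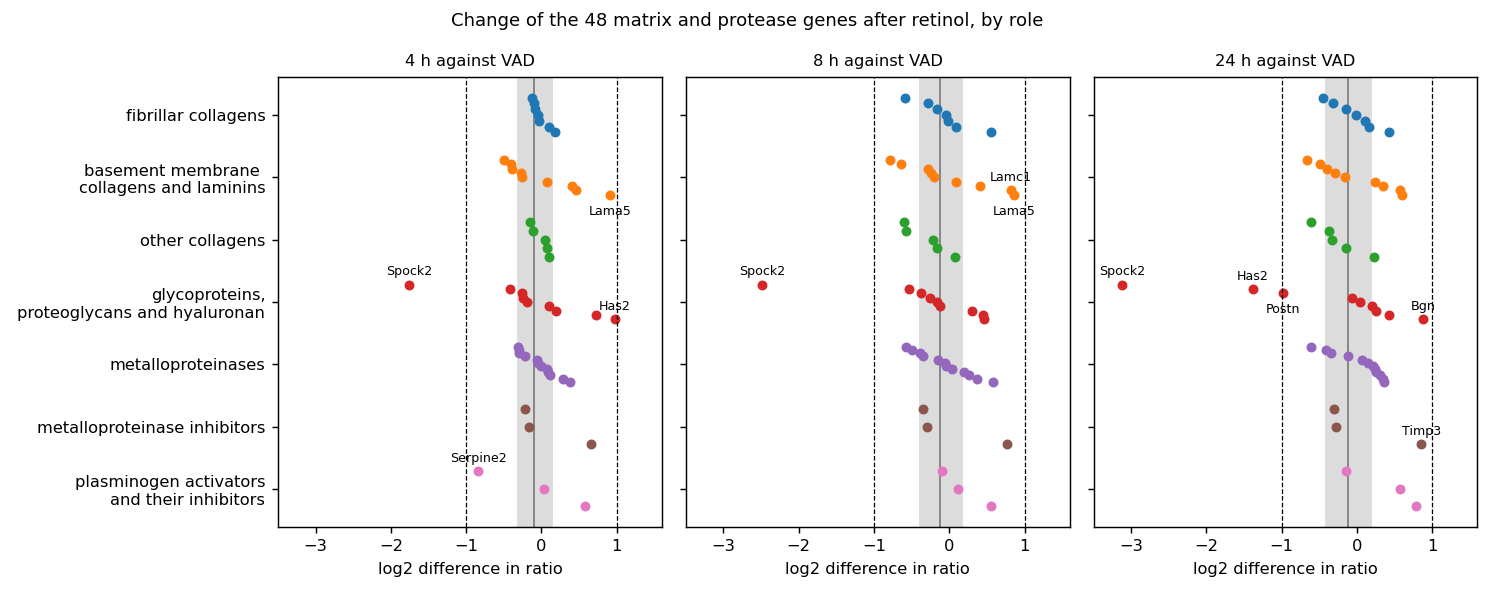
Log2 difference in deposited ratio against VAD for each of the 48 genes (points, 1 array per time), in rows by role. Grey bands are the middle 50% of all 4736 genes with their median as a line, and dashed lines mark 2-fold. Spock2 lies at -1.76, -2.48 and -3.12 and Has2 at -1.38 at 24 h, while the other points lie between the dashed lines, for the values as deposited.

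Among the proteoglycans, glycoproteins and the hyaluronan enzyme, Spock2 (testican-2, a secreted proteoglycan of the SPARC family) had a ratio of 0.632 on the VAD array. It stood at 0.187 at 4 h, 0.113 at 8 h and 0.0728 at 24 h, each lower than the array before. The changes were -1.76, -2.48 and -3.12, that is 3.38-fold, 5.59-fold and 8.68-fold lower, and under spike-in scaling -1.21, -1.98 and -2.50. Only 3 of all genes had a lower change at 4 h, none at 8 h and 1 at 24 h. It was read by 1 probe set, named for an expressed sequence tag, and no second probe set checks it. Its VAD ratio was the lowest of the 48. The 250 bases before its start are shown because it carries the largest change of the list, and they held no match to any of the motifs named above.
Spock2, chr20:28580012-28580261, + strand: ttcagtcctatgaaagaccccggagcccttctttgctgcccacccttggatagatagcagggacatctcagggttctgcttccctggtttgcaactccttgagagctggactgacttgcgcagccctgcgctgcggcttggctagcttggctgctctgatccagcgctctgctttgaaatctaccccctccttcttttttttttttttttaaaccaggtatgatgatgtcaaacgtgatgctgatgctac

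Has2, the synthase that extrudes hyaluronan from the cell membrane, differed from Spock2 in lying above VAD at 4 and 8 h. After 4 h it was, like Spock2, lower on each array than on the one before. Its ratio was 1.24 on the VAD array, 2.44 at 4 h, 1.69 at 8 h and 0.477 at 24 h, so it was highest early and lowest late. The changes were 0.97, 0.45 and -1.38. Between 8 h and 24 h it differed by -1.83, or 3.55-fold, the third lowest difference of all genes and the 1 matrix gene past 2-fold in that step (2.08% of the list, 1.16% of all genes). With spike-in scaling the 24 h change was -0.76 and the 4 h change 1.52, so its 2-fold call moved from 24 h to 4 h, while the difference between 8 h and 24 h was -1.71. It too was read by 1 probe set.

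Vcan, the large hyaluronan-binding proteoglycan versican, had ratios of 0.759, 1.25, 0.584 and 0.872 on the VAD, 4, 8 and 24 h arrays. Only the 4 h array stood above 1. Against VAD the changes were 0.72, -0.38 and 0.20, and the 8 h array lay 1.10 (log2) below the 4 h array. That difference, -1.10, made Vcan the 1 matrix gene past 2-fold between 4 h and 8 h (2.08% of the list, 1.65% of all genes). With spike-in scaling its changes against VAD were 1.27, 0.12 and 0.82, past 2-fold at 4 h and no longer below VAD at 8 h. It was read by 1 probe set. Postn (periostin, a matricellular protein of fibroblasts) had ratios of 1.12, 0.839, 0.774 and 0.568, the retinol arrays all below VAD. Its change at 24 h was -0.98, short of 2-fold, and -0.36 under spike-in scaling, where its 4 h change turned to 0.13. Lum (lumican, which spaces collagen fibrils) had the highest VAD ratio of the list, 1.305, and stayed between 1.09 and 1.35 on the other arrays.

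**Figure D2:**
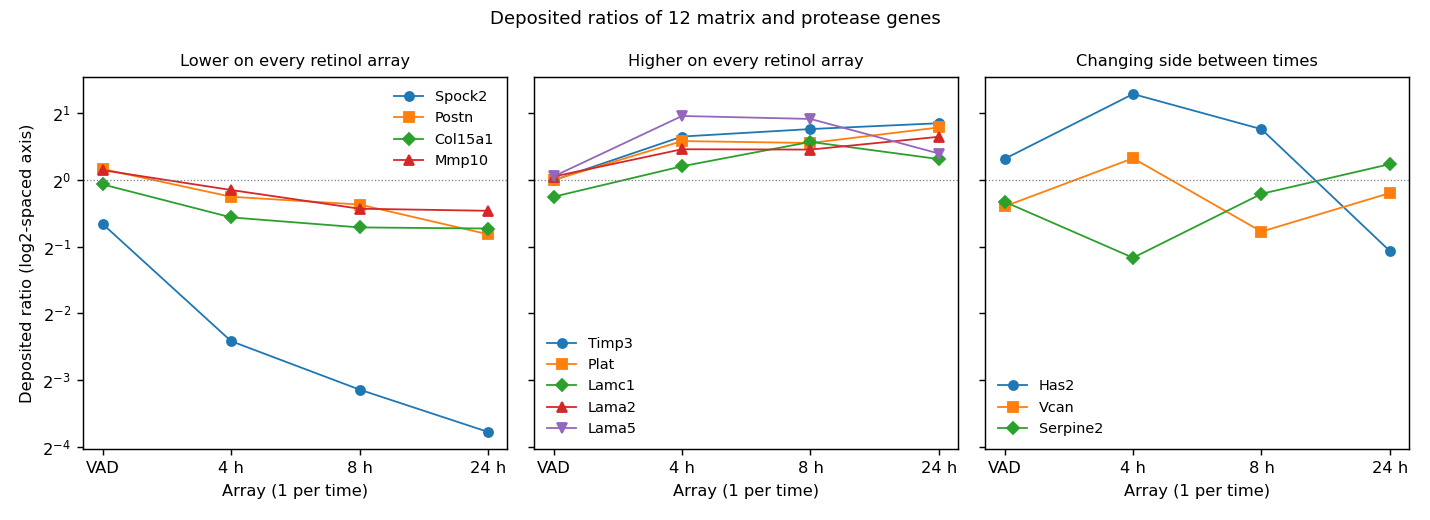
Deposited ratio (log2-spaced axis) of 12 genes on the VAD, 4, 8 and 24 h arrays, 1 array per point, with a dotted line at 1. Spock2 goes from 0.632 to 0.0728, Timp3 from 0.997 to 1.80, and Has2 is at 2.44 at 4 h and 0.477 at 24 h. The panel titles refer to the deposited values. Under spike-in scaling Postn and Col15a1 were above VAD at 4 h, Mmp10 at 4 h and 24 h, and Vcan at 4, 8 and 24 h.

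The remaining proteins of this group were read by several probe sets, which disagreed. Bgn (biglycan, a small leucine-rich proteoglycan that binds collagen) had 2. One gave ratios of 0.804, 0.584, 0.600 and 0.814 on the VAD, 4, 8 and 24 h arrays, the other 0.794, 1.26, 2.02 and 2.64. They started alike and parted after retinol, with changes at 24 h of 0.02 and 1.73 around a mean of 0.87; the mean ratios were 0.799, 0.858, 1.10 and 1.47. Fn1 (fibronectin, the cell-adhesive glycoprotein) had 5, and at 24 h 4 of them lay between -0.16 and 0.31 and the fifth at 1.95, for a mean of 0.43. Its mean ratios were 0.986, 1.12, 1.22 and 1.33. The one at 1.95 shares its source sequence with the one at -0.16. The ratios of the former were 1.02, 1.69, 2.19 and 3.92, against 1.003, 1.26, 1.03 and 0.895 for that partner. Dcn (decorin, a relative of biglycan) had mean ratios of 0.967, 0.805, 0.889 and 1.16 over 4, which lay at -0.30, 0.13, 0.19 and 1.01 at 24 h. Sparc (osteonectin, a collagen-binding glycoprotein) had mean ratios of 0.933, 0.784, 0.837 and 0.891 over 4, and they ran from -0.45 to 0.27 over the 3 retinol arrays, with means of -0.25, -0.16 and -0.07.

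**Figure D3:**
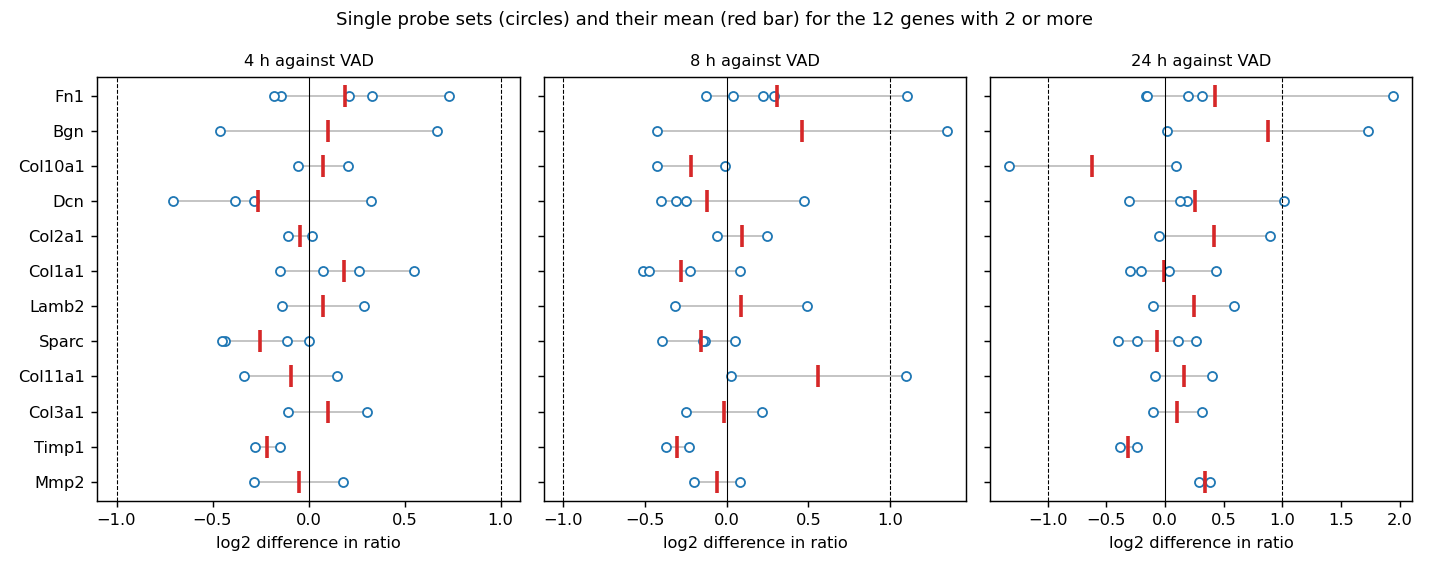
Log2 difference in deposited ratio against VAD for each probe set (circles) of the 12 genes that have 2 or more, with the gene's mean (red bar) and its range (grey line). Dashed lines mark 2-fold; at 24 h the circles of Fn1 run from -0.16 to 1.95 and those of Bgn from 0.02 to 1.73, while those of Mmp2 lie at 0.29 and 0.39.

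The 12 genes with 2 or more probe sets showed how far a single reading carries. Their probe sets spanned a median range of 0.46, 0.53 and 0.71 at 4, 8 and 24 h, where the 1565 such genes of the array spanned 0.43, 0.50 and 0.56. All probe sets shared a sign in 1, 3 and 3 of the 12 genes, against 49.0%, 48.8% and 49.5% of the 1565. At 24 h 4 of the 12 (33.3%) had a probe set past 2-fold and none had all of them past it, against 19.0% and 0.58% of the 1565. No mean over 2 or more probe sets passed 2-fold in any comparison, where 3.13% of such genes did so at 24 h. Both genes called at 24 h are among the 36 with 1 probe set.

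The 7 fibrillar collagen genes, which form the tensile fibres, stayed near VAD, with medians of -0.05, -0.04 and -0.01 and none past 2-fold as deposited. Of all genes 2.66%, 4.71% and 5.91% were past 2-fold, so none of 7 says little. As deposited 2, 2 and 3 of the 7 were above VAD, which became 7, 6 and 7 with spike-in scaling, where Col11a1 passed 2-fold at 8 h (1.06) and Col2a1 at 24 h (1.04). Col1a1 of type I collagen had ratios of 1.03, 1.17, 0.844 and 1.02 as the mean of 4 probe sets, and its partner chain Col1a2 1.10, 1.03, 0.730 and 0.804 from 1. Both were lowest at 8 h, at -0.28 and -0.59. Col3a1 of type III collagen had mean ratios of 1.01, 1.08, 0.999 and 1.09 over 2 probe sets, and lay at 0.10, -0.02 and 0.11. Col11a1, a minor fibril collagen, had mean ratios of 0.995, 0.933, 1.47 and 1.11 and stood at 0.56 at 8 h, from probe sets at 0.03 and 1.09. Col2a1, the cartilage collagen, had mean ratios of 1.01, 0.982, 1.08 and 1.36 and a mean change of 0.42 at 24 h from probe sets at -0.05 and 0.89.

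In the basement membrane group of 9 the laminins lay on both sides of VAD as deposited. Lama5 (the laminin alpha 5 chain) had ratios of 1.04, 1.94, 1.88 and 1.32, higher at 4 and 8 h (0.91 and 0.86) than at 24 h (0.34). Lamc1 (the gamma 1 chain found in most laminins) had 0.839, 1.15, 1.48 and 1.24, with changes of 0.46, 0.82 and 0.56. Lama2 had 1.03, 1.38, 1.37 and 1.56, ending 0.60 above VAD. On the other side Lama3 (the alpha chain of laminin-332 of epithelia) had 1.03, 0.786, 0.600 and 0.785 and was 0.79 below VAD at 8 h (-0.79), and Lama1 ended at -0.49. Lamb2 had mean ratios of 0.961, 1.01, 1.02 and 1.14 and a mean change of 0.24 at 24 h from probe sets at -0.10 and 0.59. Of the 3 collagens of the group, Col15a1 (a linker of basement membrane to the stroma) had 0.954, 0.677, 0.610 and 0.603, at -0.49, -0.65 and -0.66. Col4a3 and Col4a5, chains of the type IV network, ended at -0.30 and -0.16. The group's medians were -0.26, -0.20 and -0.16, and none of the 9 passed 2-fold as deposited, where 2.66%, 4.71% and 5.91% of all genes did. With spike-in scaling 2 passed it at each time (Lama5 and Lamc1 at 4 and 8 h, Lama2 and Lamc1 at 24 h), with median centring Lama5 did at 4 h (1.002), and the 4 above VAD at each time became 9, 7 and 8 with spike-in scaling.

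The 5 other collagens were Col8a1, Col9a1, Col10a1, Col12a1 and Col26a1. Their medians were 0.04, -0.22 and -0.33, with 3, 1 and 1 above VAD as deposited and 5, 3 and 5 under spike-in scaling. Col8a1, a short-chain collagen of vessel walls, had ratios of 1.12, 1.002, 0.738 and 0.865. Col10a1, the collagen of growth-plate cartilage, had mean ratios of 0.941, 0.991, 0.809 and 0.613 and a mean change of -0.62 at 24 h from probe sets at -1.33 and 0.09, which read the gene from different sequences.

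As deposited, none of the 12 MMP genes passed 2-fold on any array, where 2.66%, 4.71% and 5.91% of all genes did at 4, 8 and 24 h. For 12 genes that says little. With spike-in scaling Mmp9 passed it at 8 h (1.08). Their medians were -0.03, -0.05 and 0.18. The number above VAD was 5, 5 and 8 of 12 as deposited and 12, 11 and 12 with spike-in scaling. Mmp10 (stromelysin-2) had ratios of 1.11, 0.90, 0.741 and 0.725 and the lowest value of the group at 24 h, -0.61. Mmp9 (gelatinase B, which digests denatured and type IV collagen) was at 0.11, 0.58 and 0.24, highest at 8 h. Mmp2 (gelatinase A) had probe sets that came together at 24 h, at 0.29 and 0.39, after -0.29 and 0.18 at 4 h, and its mean ratios were 0.918, 0.885, 0.881 and 1.16, ending 0.34 above VAD. Mmp14, the membrane-bound activator of Mmp2, was at 0.08, 0.27 and 0.21, and Mmp7 (matrilysin) at 0.38, 0.19 and 0.35. The others, Mmp3, Mmp8, Mmp11, Mmp12, Mmp13, Mmp16 and Mmp23, lay between -0.49 and 0.36 at all 3 times. In the chromosome 8 group the 24 h changes as deposited were -0.12, 0.07, 0.25, -0.61, -0.35 and 0.35 in gene order. With spike-in scaling they were 0.50, 0.69, 0.87, 0.01, 0.28 and 0.98. Each of these genes was read by 1 probe set, and whether the AP-1 motif bears on their changes was not tested. Mmp3 (0.25) and Mmp10 (-0.61), next to each other in that order and both with the motif, lay 0.86 apart, a gap that scaling leaves as it is. The noise of 1 probe set was 0.57 at 24 h, and a gap between 2 carries more. The 6 genes with TGANTCA had medians of -0.26, -0.37 and -0.03, and the 28 with a promoter but no match -0.11, -0.18 and -0.16.

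Of the 3 TIMP genes measured, 1 was above VAD as deposited. Timp3, the inhibitor that stays bound to matrix, had ratios of 0.997, 1.57, 1.70 and 1.80, each higher than the array before. Its changes were 0.65, 0.77 and 0.85, or 1.57-fold, 1.70-fold and 1.81-fold, from 1 probe set, and 1.20, 1.27 and 1.48 under spike-in scaling, past 2-fold each time. Timp1, a soluble inhibitor, had mean ratios of 1.03, 0.886, 0.835 and 0.829 over 2 probe sets of the same sequence and lay at -0.21, -0.30 and -0.31, and Timp2 at -0.17, -0.34 and -0.28. The smallest gap between Timp3 and either of these, at 4 h, was 0.82, and gaps within an array do not depend on scaling. The noise of 1 probe set was 0.42 at 4 h, and a gap between 2 genes carries more. Timp1 and Timp2 lay above VAD with spike-in scaling at all 3 times.

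In the plasminogen system Plat (tissue-type plasminogen activator) had ratios of 0.999, 1.497, 1.47 and 1.72, all retinol arrays above VAD, with changes of 0.58, 0.55 and 0.79. Plau (urokinase, the other activator) was at 0.04, -0.09 and -0.15. Serpine2 (protease nexin-1, a serpin that inhibits both activators and thrombin) had 0.796, 0.445, 0.865 and 1.18. It was lowest at 4 h (-0.84) and above VAD at 24 h (0.57), and its difference between 4 h and 8 h was 0.96, short of 2-fold. With spike-in scaling the 4 h value was -0.29. Each of the 3 had 1 probe set, and none passed 2-fold as deposited, where 2.66%, 4.71% and 5.91% of all genes did. With spike-in scaling Plat did at all 3 times (1.13, 1.06 and 1.41) and Serpine2 at 24 h (1.19).

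Promoters of 3 genes are shown next for their GC boxes, chosen after their values were seen as higher on all 3 retinol arrays, with each match to GGGCGG on either strand in capitals. Timp3 held 3 matches, Lamc1 5, of which 2 overlap, and Lama5 4. Plat was not matched in the RefSeq promoter table. Other genes with GC boxes lay on both sides of VAD as deposited. Lama2 (0.41, 0.40 and 0.60) held 1 match and Mmp11 (0.08, 0.03 and 0.30) held 3, both above VAD on all 3 arrays. Serpine2, at -0.84, 0.12 and 0.57, held 6. Col11a1 and Plau with 3 each, and Mmp23 and Vcan with 2 each, likewise changed side between arrays. Col8a1, below VAD on all 3 arrays as deposited, held 4. Timp1, Timp2, Col4a3, Col4a5 and Col5a1, likewise below, held 1 each. Whether GC boxes bear on the changes was not tested.
Timp3, chr7:19459559-19459808, - strand: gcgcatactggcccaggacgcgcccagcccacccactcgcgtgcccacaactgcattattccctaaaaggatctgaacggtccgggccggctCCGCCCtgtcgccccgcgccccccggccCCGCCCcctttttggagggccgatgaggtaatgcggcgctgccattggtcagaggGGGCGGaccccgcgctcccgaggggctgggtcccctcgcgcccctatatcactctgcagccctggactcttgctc
Lamc1, chr13:68051987-68052236, - strand: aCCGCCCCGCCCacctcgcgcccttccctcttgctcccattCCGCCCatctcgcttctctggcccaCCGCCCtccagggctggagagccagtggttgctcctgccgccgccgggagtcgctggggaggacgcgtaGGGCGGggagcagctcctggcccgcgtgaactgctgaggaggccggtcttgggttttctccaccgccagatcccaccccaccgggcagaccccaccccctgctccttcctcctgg
Lama5, chr3:187695975-187696224, - strand: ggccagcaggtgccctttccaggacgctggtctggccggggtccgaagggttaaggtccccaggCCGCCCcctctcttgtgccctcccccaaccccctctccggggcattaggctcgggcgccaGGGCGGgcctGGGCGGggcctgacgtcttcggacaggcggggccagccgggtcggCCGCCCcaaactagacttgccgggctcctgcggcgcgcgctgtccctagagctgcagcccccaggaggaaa

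The 16 genes with a GC box had median changes of -0.05, -0.07 and 0.15, and the 18 with a promoter but no match -0.21, -0.32 and -0.34. Over the array genes with a promoter the order was the other way, at -0.11, -0.15 and -0.16 with a match and -0.08, -0.10 and -0.09 without. Spock2 and Postn are among the 18 without.

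Other genes of matrix biology were taken from a list of receptors, further matrix proteins, collagen-processing and crosslinking genes, other proteases and regulators, of which 99 of 141 were measured. Their medians were -0.02, -0.05 and -0.02, with 0, 3 and 4 at least 2-fold higher and 1, 1 and 2 lower, where all genes gave 1.41%, 2.83% and 3.27% higher and 1.25%, 1.88% and 2.64% lower. At 24 h the largest positive changes were Sp1 (the GC box factor) at 1.67, Adam10 (a membrane sheddase) at 1.32 and Itgav (the integrin alpha V chain, a receptor for fibronectin and vitronectin) at 1.20. Sp1 had ratios of 0.851, 1.54, 2.22 and 2.70, and whether Sp1 bears on the genes with a GC box was not tested. The most negative were Ibsp (bone sialoprotein) at -1.27, Tnr (tenascin-R) at -1.14 and Gpc1 (glypican-1) at -0.74. Spike-in scaling would add 0.62 to each, which leaves these negative changes short of 2-fold. All of the genes named here, higher and lower, were read by 1 probe set each. The 12 genes listed for collagen processing and crosslinking had medians of -0.23, -0.26 and -0.22 with none past 2-fold. They also hold the hyaluronidase Hyal2 and the transglutaminases Tgm1 and Tgm4, so these medians are not of collagen processing alone. The 16 receptors had medians of -0.07, -0.09 and -0.06.

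Markers of the cell types of the testis that can make matrix, or that travel with it, were read on the same arrays. All 6 peritubular myoid markers were measured and had medians of -0.33, -0.45 and -0.49, with 1, 1 and 2 of 6 above VAD. The 8 fibroblast and smooth muscle markers, which include 5 of the 48 genes, were at -0.06, -0.19 and 0.02. The 12 genes read as Sertoli markers were at 0.16, 0.05 and 0.04. They include Trh (0.24, 0.47 and 0.43), which an alias of a listed symbol brought in and which was not itself listed. Without Trh the middle gene was Inha at 4 h (0.09), Amh at 8 h (-0.01) and Inhbb at 24 h (-0.07). The 4 endothelial markers were at -0.25, 0.06 and 0.07, and at 24 h they ran from -1.35 (Kdr) to 0.65 (Pecam1). The 5 macrophage markers were at -0.08, -0.03 and 0.24, with 1, 1 and 3 above VAD. The 6 Leydig markers measured were at 0.29, 0.12 and -0.44, with 4, 4 and 2 above VAD. They did not move together, and at 24 h ran from -1.95 (Cyp11a1) to 1.63 (Nr5a1). Among germ cells, the 3 spermatogonial markers measured were at 0.46, 0.34 and 0.29, the 5 of spermatocytes at 0.38, -0.20 and -0.26 and the 6 of spermatids at 0.77, -0.37 and -0.66. All 6 spermatid markers were above VAD at 4 h and below it at 8 h as deposited. The part of any of these cell types in the values of the matrix genes was not tested.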

How the data were processed

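Total RNA of whole testis, 10 micrograms per sample per the labels' protocols, was labelled as biotinylated cRNA and read on the Affymetrix Rat Genome U34 array. The authors deposited 1 linear ratio per probe set and sample. GCOS and MAS5 are named, without a version, in the submitters' processing notes; the reference of the ratios, the scaling and any pooling of chips are not stated, and no signal level or detection call came with the deposited values. Control probe sets and those with several gene symbols (308) or none listed (1426) were left out. Symbols were updated through Entrez IDs, 6985 of 7006 of which matched RefSeq. Ratios were put on the log2 scale without a floor, averaged per gene and subtracted between arrays with Python 3.11.15 and pandas 2.3.3. Called means at least 2-fold. The procedure was tested on simulated data. Members named with all array values are those at least 1.5-fold from VAD or with 2 or more probe sets; other values are printed as ranges or changes. The context list is named by its 3 largest changes in each direction at 24 h. The members and lists were chosen with earlier results of these data known. Alternatives covered scaling, the probe set rule, the reference and the threshold. Whether arrays come from separate animals is unknown, so probe set disagreement is the only error given, and the number of arrays limits the precision.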

Additional observations from a re-analysis of the deposited data

How the results depend on the processing

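The sign of the small medians and the number of genes past 2-fold depended on scaling and on the probe set rule. Spock2 stayed at least 2-fold lower on all 3 retinol arrays under each scaling and reference that keeps it. Having 1 probe set, it has the same value under each probe set rule, so those rules do not test it. Centring each array on all genes gave medians of 0.047, -0.022 and 0.13 at 4, 8 and 24 h and 3 genes past 2-fold at 4 h (2.83% of all genes). Spike-in scaling gave medians of 0.50, 0.37 and 0.64, with 7, 7 and 9 genes past 2-fold (6, 6 and 8 of them higher), where 9.65%, 10.6% and 16.0% of all genes passed in either direction, and medians of -0.092 between 4 h and 8 h and 0.21 between 8 h and 24 h. Keeping per gene only its highest probe set by mean ratio gave medians of -0.025 at 8 h and 0.12 at 24 h. It put 4 and 5 genes past 2-fold (7.05% and 8.49% of all genes). That mean includes the retinol arrays, so the rule favours probe sets that rose after retinol. Genes with 2 or more probe sets (12) had medians of 0.015, -0.037 and 0.20 against VAD, 0.054 from 4 h to 8 h and 0.14 from 8 h to 24 h, with 0 past 2-fold in all 5 comparisons. Of all genes with 2 or more probe sets, 0.831%, 1.98% and 3.13% passed against VAD, 0.511% from 4 h to 8 h and 0.575% from 8 h to 24 h. The 30 genes with a VAD ratio within 10% of 1, which leave out Spock2, Has2 and Vcan, also had 0 past 2-fold in all 5. Of all genes with such a VAD ratio, 1.48%, 2.7% and 3.19% passed against VAD, 0.789% from 4 h to 8 h and 0.756% from 8 h to 24 h. Leaving out probe sets of shared or mixed suffix gave a median of 0.0051 between 8 h and 24 h. It gave 0 past 2-fold between 4 h and 8 h (2.05% of all genes), since Vcan has no other probe set. At 24 h it gave 3 of 40 genes past 2-fold (7.5%, against 6.69% of all genes), with Col10a1 at -1.33 beside Spock2 and Has2. Taking the ratio itself, against 1, gave 3 past 2-fold at 4 h (6.25% of the list, 4.1% of all genes). A 1.5-fold threshold gave 6, 8 and 10 against VAD, 5 between 4 h and 8 h and 2 between 8 h and 24 h. These were 12.5%, 16.7%, 20.8%, 10.4% and 4.17% of the list, against 12.8%, 20.9%, 23.1%, 7.01% and 6.23% of all genes. In all, 42 alternative counts and medians, the count of 3 at 24 h without shared suffixes among them, stayed within set limits. The limits were 1.5 times the count, or the noise of 1 probe set divided by the square root of the number of genes. Of 75 values of single genes, 17 moved by more than their probe set noise and none changed sign past 2-fold. Of the 17, 9 came from spike-in scaling. Genes with 1 probe set could not move under the probe set rules, so their unmoved values there are no check. Bgn and Fn1 were at 0.018 and 0.050 at 24 h without probe sets of shared suffix, and at 1.73 and 1.95 with the highest probe set. Deposited ratios carry no signal over background, so a dim gene cannot be told from a bright one. No paired analysis was possible because each group holds 1 sample.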
